A study of Caenorhabditis elegans with 48 samples.

Results

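The mitochondrial unfolded protein response genes described here are 7 Caenorhabditis elegans genes chosen by gene ID: atfs-1 (ZC376.7), dve-1 (ZK1193.5), ubl-5 (F46F11.4), hsp-6 (C37H5.8), hsp-60 (Y22D7AL.5), clpp-1 (ZK970.2) and lonp-1 (C34B2.6). All 7 were present among the 44968 genes counted, and all 7 passed the filter on low counts (CPM, counts scaled to the library total, over 1 in at least 4 libraries) with 16987 genes in all. The rule names gene IDs and uses no measured value, although the genes were picked for description with earlier results of these data known. Their levels were followed by mRNA-seq in whole wild-type N2 animals. These were cultured without food from the embryo onward, in S-basal buffer at 20 °C, so that they hatched into first larval stage arrest (L1 arrest). Every group carried the same genotype and the same lack of food. The groups differed by time, and with it by stage and survival. By the study's account -2 h preceded hatching and hatching went on past 2 h, so that the first groups held embryos or mixtures of embryos and larvae. More larvae were collected at 192 and 288 h to allow for deaths. The first 2 time points were -2 h and 0 h, the nominal hatch, and later ones followed at 2, 4, 6 and 9 h, at 12 and 24 h, and at 48, 96, 192 and 288 h. Each time point had 4 libraries, from replicates numbered 1, 5, 6 and 8. No fed animals were included here, so each change below is a change within cultures that lacked food. By the study's own description most larvae outlived the eighth day and most were dead at the last time point.

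In this response, cells that detect failing mitochondrial protein import or folding raise the nuclear transcription of mitochondrial chaperones and proteases. ATFS-1 is a bZIP transcription factor that healthy mitochondria import and degrade, and that enters the nucleus when import falters. DVE-1 is a homeodomain protein and UBL-5 a ubiquitin-like protein, and both take part in the transcriptional response. HSP-6, the mitochondrial Hsp70, and HSP-60, the mitochondrial chaperonin, fold imported proteins in the matrix and are the usual reporters of the response in C. elegans. CLPP-1, the ClpP protease subunit, and LONP-1, the Lon protease, degrade matrix proteins. In the current annotation (WBcel235), atfs-1 and hsp-6 lie on chromosome V, ubl-5 and lonp-1 on chromosome I, dve-1 on X, hsp-60 on III and clpp-1 on II.

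Libraries held 10164115 to 15962842 gene counts, with a median of 12449156.5. Levels are given as CPM after TMM scaling, with the SD over 4 libraries, and per kb of exon wherever levels of different genes are compared. CPM is a relative scale: mRNA per animal was not measured for these libraries. In whole animals fewer cells of a type and less RNA per cell cannot be told apart. In a separate experiment of the study, with other strains, total RNA per larva declined late in starvation, and the study proposes that mRNA declined about alongside it. The share of counts on ribosomal RNA genes had a median of 2.998%, but was 46.4% in the -2 h library of replicate 6 and 27.4% in the 24 h library of replicate 8, against at most 9.31% elsewhere. Leaving out both libraries changed the call of no member. Markers of intestine, body wall muscle, neurons, epidermis and primordial germ cells were all detected.

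The 7 genes did not share a time course. The mRNA of hsp-6 climbed from 12 h onward, hsp-60 collapsed within hours of hatching, lonp-1 and clpp-1 rose late, atfs-1 was high at hatching and again at 288 h, and dve-1 declined early. All 7 changed over the 12 time points in the edgeR likelihood ratio test at an FDR of 0.05, as did 84.9% of all genes tested, and the FDR ran from 3.25e-307 for hsp-60 to 3.72e-09 for ubl-5. The span from the lowest to the highest mean was 6.71-fold for hsp-60, 4.27-fold for hsp-6, 3.29-fold for ubl-5, 2.62-fold for lonp-1, 2.25-fold for clpp-1, 1.69-fold for dve-1 and 1.57-fold for atfs-1. Across the 12 mean values of log2(CPM + 1), Pearson's r between members ran from 0.94 for hsp-6 with clpp-1 to -0.87 for hsp-6 with ubl-5. The r between hsp-6 and hsp-60 was -0.69. These correlations describe 12 points that share libraries and scaling, and no test was applied.

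**Figure D1:**
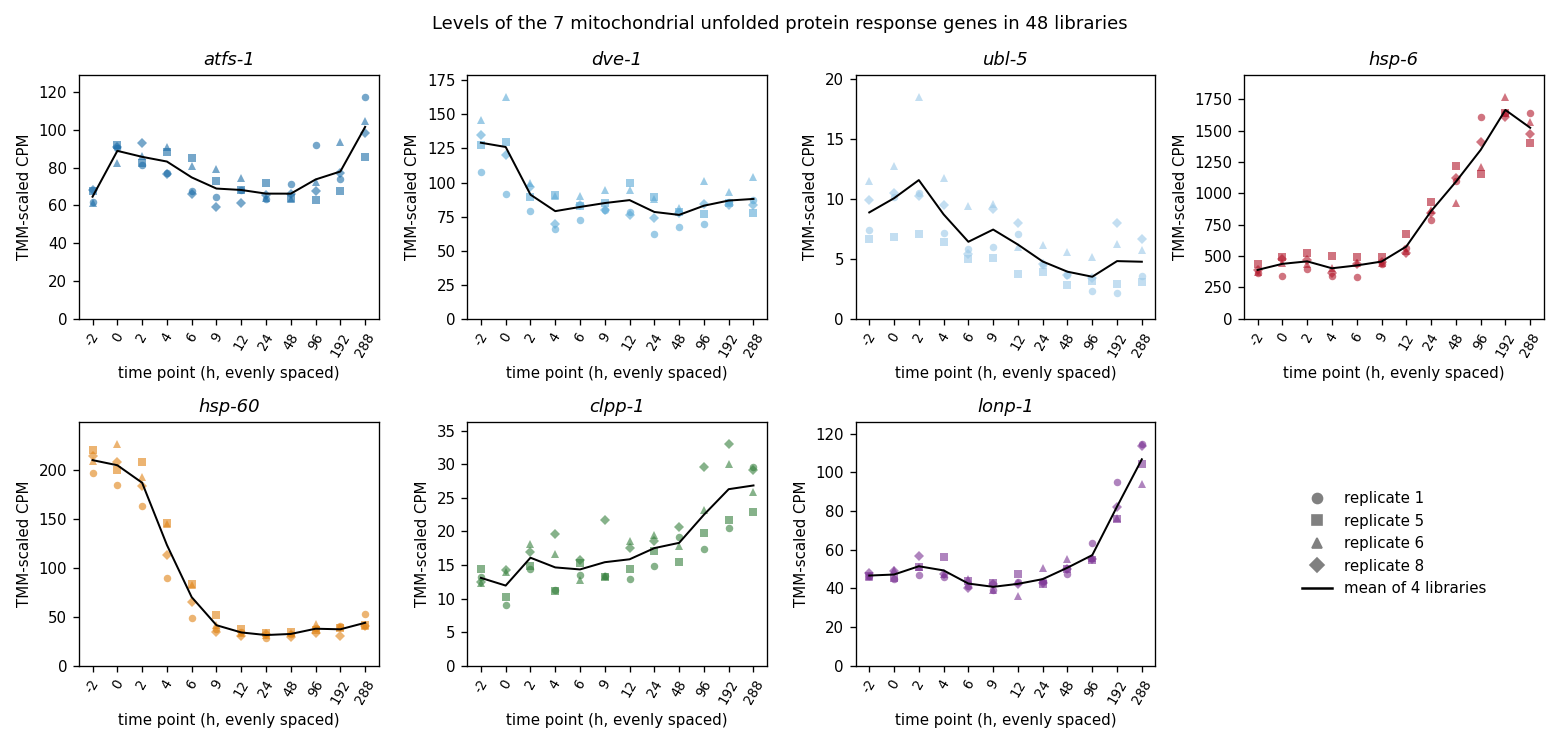
TMM-scaled CPM (linear y axis from 0, a separate scale per gene) of the 7 genes in each of 48 libraries by time point (h, evenly spaced); symbols mark the replicate number and the line joins the means of 4 libraries. The 4 hsp-60 libraries lie between 185 and 227 CPM at 0 h and between 30.5 and 37.4 at 12 h, while those of hsp-6 lie between 343 and 490 at 0 h and between 1607 and 1767 at 192 h.

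Among the regulators, atfs-1 rose at hatching. Its levels were 61.7, 67.3, 61.3 and 67.9 CPM at -2 h (replicates 1, 5, 6 and 8) and 90.1, 91.8, 82.2 and 91.1 CPM at 0 h. Every library at 0 h was above every library at -2 h, a separation in the same direction shown by 10.1% of all genes tested. Its log2 fold change was 0.46 (SE 0.11, FDR 0.00131 by the edgeR quasi-likelihood test, as for all pairs of time points below). By 12 h atfs-1 had fallen again, to 68.1 CPM ± 5.38 (SD, n = 4), with a log2 fold change against 0 h of -0.38 (FDR 0.00286). It then stayed between 66.2 and 77.9 CPM on average up to 192 h.

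At 288 h atfs-1 reached its highest mean. The 192 h libraries held 73.7, 67.3, 93.6 and 76.9 CPM and the 288 h libraries 117, 85.8, 104 and 98.4 CPM. The ranges overlapped through replicate 6 at 192 h, but each replicate number was higher at 288 h. The log2 fold change of 0.38 passed the test (SE 0.11, FDR 0.00593). Without replicate 1 it was 0.29 with an FDR of 0.0906, so that the call rests in part on that replicate. Between 24 h and 192 h the log2 fold change was 0.23 (FDR 0.0811), and it passed the threshold in 3 of 13 other ways of processing the counts. The means at 0 h (88.8 CPM ± 4.44) and 288 h (101 CPM ± 13.1) overlapped in their libraries, so their order is not settled.

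The homeodomain gene dve-1 was highest around hatching. Its 4 libraries held 108, 128, 146 and 135 CPM at -2 h and 91.8, 129, 163 and 120.5 CPM at 0 h, with no detectable change between them (log2 fold change -0.03, 95% interval -0.30 to 0.23). By 12 h they held 78.3, 99.5, 94.5 and 76.1 CPM. All 4 replicates were lower than at 0 h, although the library ranges overlapped. For dve-1 the log2 fold change was -0.53 (SE 0.13, FDR 0.000962). From 4 h to 288 h the mean of dve-1 lay between 76.3 and 88.0 CPM, and no later window passed the test. The spread between replicates had a shape of its own: replicate 6 held the highest dve-1 library at 9 of 12 time points and replicate 1 the lowest at 9.

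The ubiquitin-like gene ubl-5, with the shortest exon length of the 7, had raw counts of only 27 to 216 per library. Its mean was highest at 2 h (11.6 CPM) and lowest at 96 h (3.51 CPM). At 0 h the libraries held 10.2, 6.77, 12.76 and 10.5 CPM, and at 12 h they held 7.09, 3.73, 5.94 and 7.97 CPM. This gave a log2 fold change of -0.70 (95% interval -1.31 to -0.09), which missed the threshold with an FDR of 0.0640. With the replicate number as a block it passed, with an FDR of 0.00235 and a log2 fold change of -0.68. Replicate 5 held the lowest ubl-5 library at 10 of 12 time points and replicate 6 the highest at 9, a spread that the block removes. In the 3 windows after 12 h no change was detectable at this depth, where intervals were as wide as -0.66 to 0.65 (192 h against 24 h).

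The chaperone hsp-6 was the most abundant of the 7 at every time point. From -2 h to 9 h its mean lay between 390 and 458 CPM, and neighbouring time points overlapped. At 0 h the libraries held 343, 490, 445 and 474 CPM, at 12 h 567, 674, 542 and 521 CPM, and at 24 h 789, 933, 866 and 843 CPM. Every library at 12 h was above every library at 9 h, and every library at 24 h above every library at 12 h. Separations of this kind from 9 h to 12 h and from 12 h to 24 h, upward, were shown by 3.76% and 7.69% of all genes tested. The rise had a log2 fold change of 0.39 for 12 h against 0 h (SE 0.12, FDR 0.00592) and 0.57 for 24 h against 12 h (SE 0.12, FDR 0.000851).

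The climb of hsp-6 went on for days. Its mean was 1092 CPM ± 122 at 48 h and 1345 CPM ± 207 at 96 h. At 192 h the libraries held 1639, 1643, 1767 and 1607 CPM. The log2 fold change against 24 h was 0.96 (SE 0.12, FDR 9.29e-09), and 7.09% of all genes tested had a higher value. At 288 h the libraries held 1643, 1402, 1569 and 1474 CPM, and a further change was not detectable (log2 fold change -0.13, 95% interval -0.36 to 0.11). Without TMM scaling the 2 earlier rises of hsp-6 missed the threshold, with log2 fold changes of 0.28 (FDR 0.152) and 0.36 (FDR 0.125). Leaving out the scaling factors moved the median of all genes for 24 h against 12 h by -0.22, and relative to the median gene the change of hsp-6 was 0.56 with or without them.

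The chaperonin hsp-60 fell where hsp-6 did not. Its libraries held 185, 200.5, 227 and 208 CPM at 0 h, 163, 209, 193 and 183 CPM at 2 h, 89.5, 146, 145 and 113 CPM at 4 h, and 49.2, 83.7, 82.7 and 64.8 CPM at 6 h. The 2 h libraries lay above all those at 4 h, and these above all those at 6 h. A downward separation was shown by 2.91% of all genes tested for the first of these steps and 2.27% for the second. At 12 h the libraries held 34.9, 37.4, 33.2 and 30.5 CPM. From 0 h to 12 h the log2 fold change was -2.59 (SE 0.14, FDR 7.78e-19), and only 2.40% of all genes tested had a lower value. In all 13 other ways of processing the counts it stayed between -2.71 and -2.53 and past the threshold.

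After its fall hsp-60 stayed low. The mean was lowest at 24 h (31.3 CPM ± 2.13) and was 37.2 CPM ± 4.98 at 192 h. Between these time points the log2 fold change was 0.25 (95% interval -0.03 to 0.53, FDR 0.167). For the same 2 time points the interval of hsp-6 was 0.72 to 1.19. At 288 h the libraries held 53.0, 41.5, 40.4 and 40.6 CPM, with replicate 1 set apart upward. The log2 fold change against 192 h was 0.24 (FDR 0.239).

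The parting of the 2 chaperone mRNAs showed most plainly as a ratio within each library, which needs no scaling between libraries. Most of the fall of hsp-60 came before 12 h, and most of the rise of hsp-6 came after it. Per kb of exon, hsp-6 counts were 1.60 times those of hsp-60 at -2 h (range 1.53 to 1.70) and 1.84 times at 0 h (1.60 to 2.11). The ratio was 5.32 at 6 h, 14.6 at 12 h (14.0 to 15.6) and 23.6 at 24 h (22.1 to 24.4). It was highest at 192 h, with 39.1 (34.5 to 46.4), and was 30.2 (26.7 to 33.5) at 288 h. No library from 4 h onward had a ratio as low as any library at 2 h or before. As a share of the summed CPM per kb of the 7 genes, hsp-6 went from 40.7% at -2 h to 81.0% at 192 h, while hsp-60 went from 25.5% to 2.102%.

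**Figure D2:**
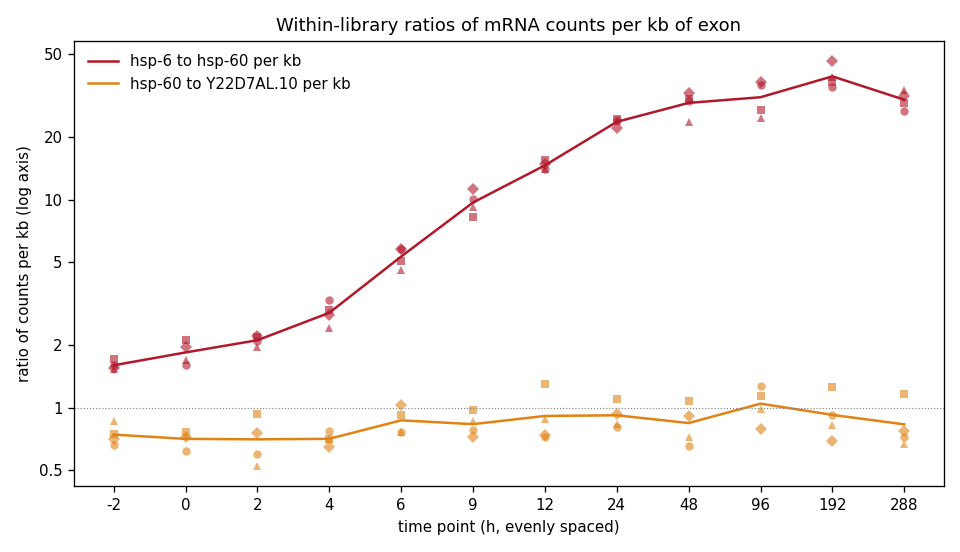
Ratio of counts per kb of exon within each library (log y axis) by time point (h, evenly spaced) for hsp-6 to hsp-60 and for hsp-60 to Y22D7AL.10; points are libraries, with the symbol of the replicate as in the plot of levels, and lines join means of 4. The first ratio climbs from 1.60 at -2 h to 39.1 at 192 h, while the mean of the second stays between 0.704 and 1.04.

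The gene next to hsp-60 moved with it. In the current annotation the nearest protein-coding gene on the 5′ side of hsp-60 is Y22D7AL.10, on the opposite strand, so that both are transcribed away from a shared interval. Y22D7AL.10 carries no name or function in the annotation used here. Its mean was 76.4 CPM ± 5.44 at 0 h and 10.26 CPM ± 2.16 at 12 h, with a log2 fold change of -2.89 (SE 0.20, FDR 2.23e-16). The ratio of hsp-60 to Y22D7AL.10 per kb had a mean of 0.708 at 0 h and 0.912 at 12 h, and the library ranges of these time points overlapped (0.616 to 0.763 and 0.722 to 1.31). The 2 genes do not overlap each other in the current annotation. The counts were made on WS210, whose gene models were not checked for overlap.

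The arrangement at hsp-6 was looked up afterwards in the same way. Its nearest 5′ protein-coding neighbour, C37H5.5, also lies on the opposite strand. C37H5.5 rose from 75.7 CPM ± 4.20 at 12 h to 102 CPM ± 7.82 at 24 h (log2 fold change 0.42, FDR 0.000560) and to 179 CPM ± 6.08 at 192 h (log2 fold change 0.82 against 24 h, FDR 7.59e-11). Both of these are windows in which hsp-6 rose, and in which 4.26% and 19.4% of all genes tested rose. In the other window with a rise of hsp-6, 12 h against 0 h, C37H5.5 did not pass the test (log2 fold change 0.19, FDR 0.0687). The other 5 members have a 5′ neighbour on their own strand, and the levels of those neighbours were not examined. Whether the arrangement of genes bears on their levels was not tested.

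Of the proteases, lonp-1 rose late and kept rising. Up to 48 h its mean lay between 40.8 and 51.4 CPM. At 4 h its libraries lay above those at 6 h (49.3 CPM ± 4.54 and 42.5 CPM ± 2.15), a separation shown downward by 2.27% of all genes tested. At 24 h the libraries held 43.8, 42.1, 50.3 and 42.8 CPM, at 192 h 95.1, 75.7, 76.3 and 82.1 CPM, and at 288 h 115, 104, 94.0 and 114 CPM. The 192 h libraries were all above those at 96 h (54.6 to 63.6 CPM), as for 7.01% of all genes tested. The log2 fold change was 0.88 for 192 h against 24 h (SE 0.09, FDR 2.99e-11) and 0.37 for 288 h against 192 h (SE 0.09, FDR 0.000778). The second held in 12 of 13 other ways of processing the counts and missed the threshold with no filter on low counts (FDR 0.0900).

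The ClpP gene clpp-1 also rose between 24 h and 192 h. Its libraries held 14.9, 17.1, 19.5 and 18.6 CPM at 24 h and 20.5, 21.6, 30.0 and 33.1 CPM at 192 h. For clpp-1 this was a log2 fold change of 0.58 (SE 0.18, FDR 0.00763). At 288 h they held 29.5, 22.97, 25.8 and 29.1 CPM, with no detectable further change (log2 fold change 0.03, 95% interval -0.31 to 0.38). A step up soon after hatching was also seen: 9.11, 10.29, 14.0 and 14.3 CPM at 0 h against 14.5, 14.8, 18.1 and 16.9 CPM at 2 h did not overlap, as for 3.91% of all genes tested upward. For 12 h against 0 h the log2 fold change was 0.41 with an FDR of 0.0632, and with the replicate block it passed with an FDR of 0.00936.

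The counts of clpp-1 carry an added uncertainty from overlapping genes. In the current annotation 4 genes overlap clpp-1, 3 of them on the opposite strand, and the strand mode of the counting was not stated. Of the 4, mdt-22, a Mediator subunit gene on the opposite strand, is the only protein-coding one, and the others are short tRNA and non-coding RNA genes, whose levels were not examined. The level of mdt-22 was 6.81 CPM ± 0.80 at 24 h and 6.55 CPM ± 0.94 at 192 h, with a log2 fold change of -0.05 (FDR 0.875). In that window it did not move with clpp-1. For 12 h against 0 h mdt-22 had a log2 fold change of 0.47 (FDR 0.0503), close to the 0.41 of clpp-1, and neither passed the threshold. Whether reads of mdt-22 entered the counts of clpp-1 was not tested. In the same annotation no other member overlaps a gene of any kind.

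Per kb of exon the order of the 7 genes changed with time. At -2 h hsp-6 led with 158 CPM per kb, followed by hsp-60 with 99.2, and these were apart from each other and from the rest, which lay between 15.2 (lonp-1) and 38.9 (dve-1). At 24 h hsp-6 held 349 CPM per kb and was followed by atfs-1 with 34.4. By then hsp-60, lonp-1 and ubl-5 formed the lowest group at 14.8, 14.6 and 14.6, with overlapping libraries. At 288 h lonp-1 (34.9) and clpp-1 (33.95) stood side by side with overlapping ranges, below atfs-1 (52.7) and above hsp-60 (20.7). Annotated exon lengths ran from 327 bases for ubl-5 to 3319 for dve-1, and levels per kb depend on them.

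**Figure D3:**
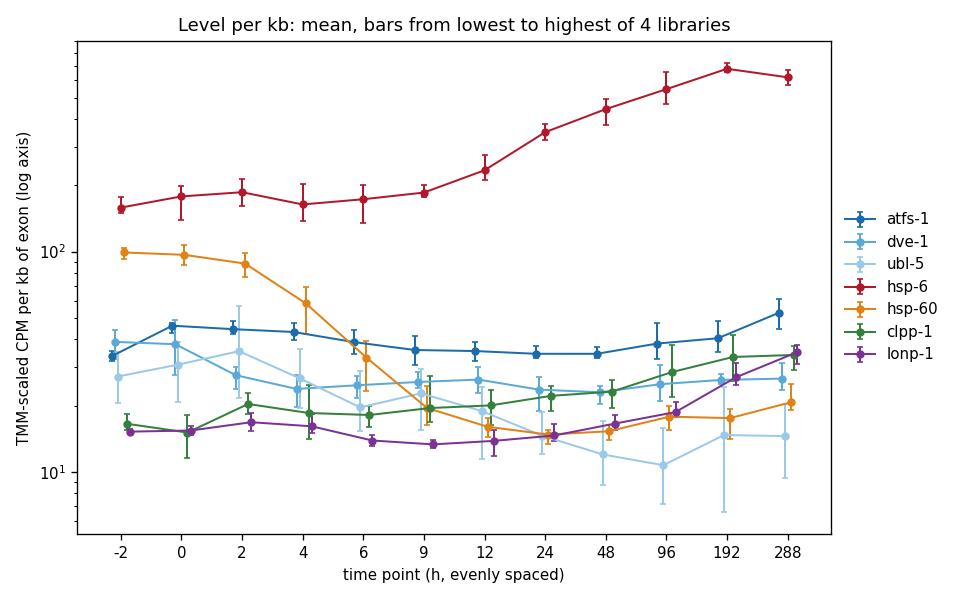
TMM-scaled CPM per kb of exon (log y axis) of the 7 genes by time point (h, evenly spaced); points are means and bars run from the lowest to the highest of 4 libraries. The level of hsp-6 is highest throughout, and hsp-60 drops from 99.2 at -2 h into the group of lowest levels, with 14.8 at 24 h.

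Counted by window, the members did not move as a group. For 0 h against -2 h, 1 of 7 members passed the threshold (atfs-1, upward), where 23.8% of all genes tested did, and 11.5% upward. For 12 h against 0 h, 4 of 7 passed, hsp-6 upward and atfs-1, dve-1 and hsp-60 downward, where 45.4% of all genes did, 22.2% upward and 23.3% downward. For 24 h against 12 h, 1 of 7 passed (hsp-6, upward), where 9.55% of all genes did, and 4.26% upward. For 192 h against 24 h, 3 of 7 passed (hsp-6, clpp-1 and lonp-1), all upward, where 39.7% of all genes passed and 19.4% did so upward. For 288 h against 192 h, 2 of 7 passed (atfs-1 and lonp-1), both upward, where 24.7% of all genes passed and 7.38% did so upward. A single member is 14.3% of the 7, so that these counts are too coarse to set the members apart from all genes.

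The median log2 fold change of the members was 0.02, -0.38, -0.04, 0.25 and 0.03 in the 5 windows in turn. Over all genes tested it was 0.03, -0.02, 0.02, -0.05 and -0.0038. Neighbouring windows share the libraries of the time point between them, so that their values are not independent. Of the members, none passed in all 5 windows.

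**Figure D4:**
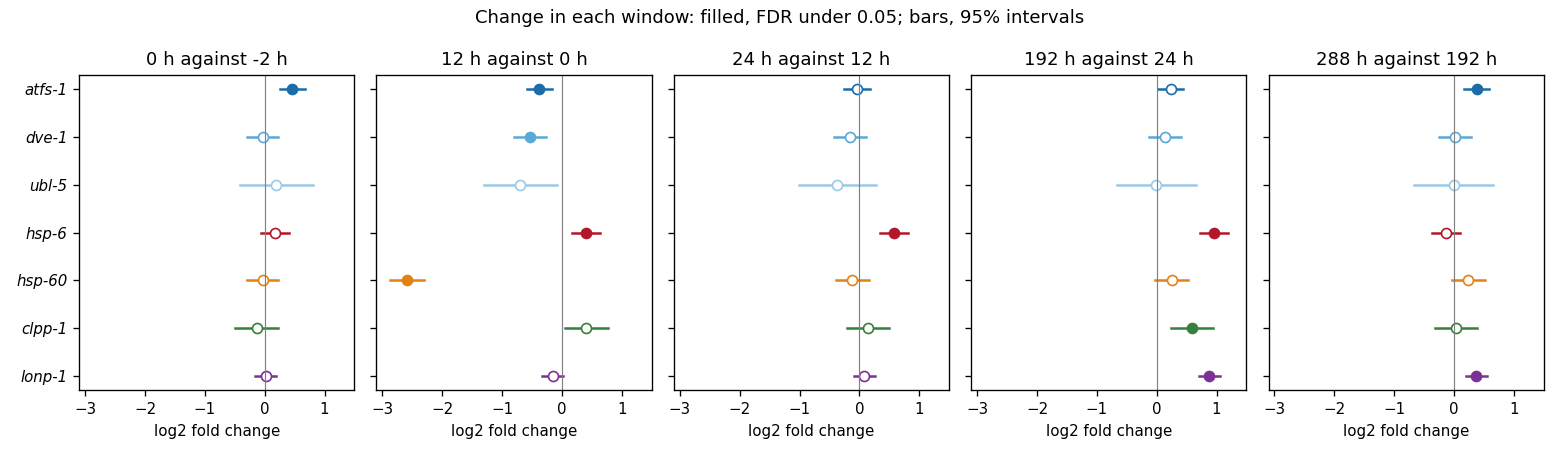
Log2 fold change (x axis) of each member in the 5 windows from the edgeR quasi-likelihood fit of 48 libraries; points are estimates, filled where the FDR was under 0.05, and bars are 95% intervals. The fall of hsp-60 at 12 h against 0 h, -2.59, stands far from the other 6 members, and the upward calls move from atfs-1 at hatching to hsp-6, then to hsp-6, clpp-1 and lonp-1, then to atfs-1 and lonp-1.

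Genes with the most similar time course were sought for each member, by Pearson's r of the same 12 mean values. The search covered the genes with a name, other than the members, among 8452 genes at a mean of at least 10 CPM. The 3 closest to hsp-6 were nubp-1 (r = 0.997), ivns-1 (0.995) and cct-4 (0.994), a subunit of the cytosolic chaperonin. For hsp-60 they were atad-3 (0.986), which encodes a mitochondrial membrane ATPase, hmit-1.1 (0.981) and mek-2 (0.979). For atfs-1 they were tomm-70 (0.930), an outer-membrane import receptor gene, nep-26 (0.914) and azin-1 (0.911). For lonp-1 they were osm-10 (0.985), bra-1 (0.983) and szy-20 (0.981), and for clpp-1 hrg-9 (0.978), syf-2 (0.977) and ubxn-6 (0.976). For ubl-5 they were cpt-5 (0.974), sox-3 (0.971) and dhs-6 (0.969), and for dve-1 col-115 (0.957), dnj-24 (0.945) and skpo-2 (0.939). These are descriptions over 12 time points in shared libraries.

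Other parts of mitochondrial protein handling went down with hsp-60 between 0 h and 12 h. Of 19 genes of mitochondrial import and protein quality control, 14 fell and 4 rose for 12 h against 0 h. Of all genes tested, 23.3% fell and 22.2% rose in this window. The median log2 fold change of the 19 was -0.98 against -0.02 over all genes. Besides Y22D7AL.10, those that fell included C34C12.8 (32.2 to 10.8 CPM, log2 fold change -1.58, FDR 4.28e-12), which has no name in the annotation used here. Those that rose included trx-2, the mitochondrial thioredoxin gene, from 21.96 to 53.3 CPM (log2 fold change 1.28, FDR 5.91e-12), and K07A3.3, also unnamed, from 5.87 to 45.7 CPM (2.95, FDR 1.05e-12). The inner-membrane translocase gene timm-23 rose from 418 to 664 CPM at 24 h against 12 h (0.67, FDR 6.99e-05) and to 1192.8 CPM at 192 h (0.84, FDR 5.07e-08), the windows in which hsp-6 rose too. The ymel-1 gene, for an inner-membrane protease, rose like lonp-1 at 192 h against 24 h, from 114 to 189 CPM (0.73, FDR 1.22e-09). At 288 h against 192 h, 7 of the 19 fell and 0 rose, while lonp-1 rose. In the other windows 0 of the 19 passed at 0 h against -2 h, 3 rose and 0 fell at 24 h against 12 h, and 4 rose and 3 fell at 192 h against 24 h. Of all genes tested, 23.8%, 9.55%, 39.7% and 24.7% passed in the windows ending at 0, 24, 192 and 288 h. Those that rose were 11.5%, 4.26%, 19.4% and 7.38%.

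Of 12 further regulators of the response, 6 rose and 3 fell for 12 h against 0 h. The 2 largest rises were those of fshr-1, a glycoprotein-hormone receptor gene, from 36.2 to 92.2 CPM (log2 fold change 1.35, FDR 3.30e-13), and ulp-4, a SUMO protease gene, from 124 to 256 CPM (1.05, FDR 6.46e-09). The bZIP gene zip-3, whose product restrains ATFS-1, rose at hatching (0.57, FDR 0.00182) and later fell, from 25.9 CPM at 24 h to 14.6 at 192 h (-0.83, FDR 6.08e-06) and 10.0 at 288 h (-0.54, FDR 0.00471). At 288 h against 192 h zip-3 was lower and atfs-1 higher. The histone demethylase genes parted: for 192 h against 24 h jmjd-1.2 rose (1.18, FDR 5.13e-13) and jmjd-3.1 fell (-1.26, FDR 3.49e-11). Of the 12, 1 rose and 2 fell at 0 h against -2 h, and 0 passed at 24 h against 12 h. At 192 h against 24 h 5 rose and 3 fell, and at 288 h against 192 h 2 rose and 1 fell. Of all genes tested, 23.8%, 45.4%, 9.55%, 39.7% and 24.7% passed in the windows ending at 0, 12, 24, 192 and 288 h. Those that rose were 11.5%, 22.2%, 4.26%, 19.4% and 7.38%.

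Chaperones outside mitochondria were set beside hsp-6 and hsp-60. Of 14 tested genes of the HSF-1 response and cytosolic chaperones, 8 rose and 0 fell for 24 h against 12 h. For 192 h against 24 h 13 rose and 0 fell. Of all genes tested, 4.26% and 19.4% rose in these windows. The cytosolic Hsp70 gene hsp-1 rose from 782 CPM ± 48.4 at 24 h to 3133 CPM ± 396 at 192 h (log2 fold change 2.00, FDR 1.07e-16), against 0.96 for hsp-6. In this list 0 passed at 0 h against -2 h, 7 rose and 3 fell at 12 h against 0 h, and 4 rose and 5 fell at 288 h against 192 h. Of 6 genes of the endoplasmic reticulum unfolded protein response, 4 rose and 0 fell at 192 h against 24 h, and 4 rose and 1 fell at 288 h against 192 h. Before that, 1 rose and 1 fell at 0 h against -2 h, 2 rose and 1 fell at 12 h against 0 h, and 0 passed at 24 h against 12 h. Of all genes tested, 23.8%, 45.4%, 9.55%, 39.7% and 24.7% passed in the windows ending at 0, 12, 24, 192 and 288 h. Those that rose were 11.5%, 22.2%, 4.26%, 19.4% and 7.38%. The BiP gene hsp-4 went from 33.9 CPM ± 20.0 at 24 h to 149 CPM ± 33.4 at 192 h (2.14, FDR 1.03e-06) and 537 CPM ± 100 at 288 h (1.85, FDR 1.62e-05). In the last window, in which hsp-4 rose, the interval for hsp-6 was -0.36 to 0.11 and that for hsp-60 was -0.04 to 0.51.

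**Figure D5:**
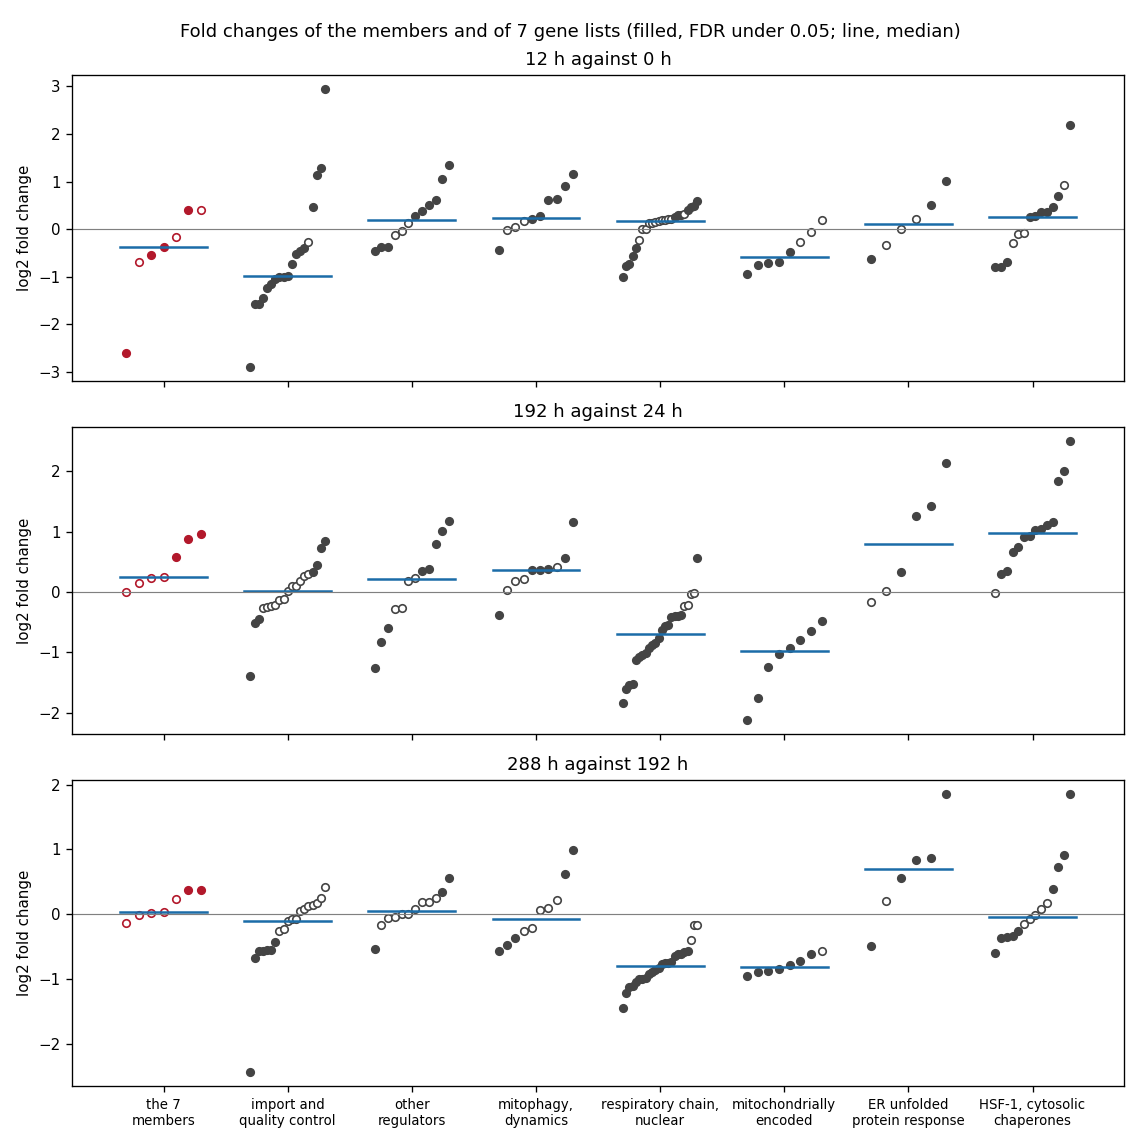
Log2 fold change (y axis, a separate scale in each panel) of the 7 members and of the tested genes of 7 lists in 3 windows; each point is a gene, filled where the FDR was under 0.05, and the line is the median. In the first window the median of the import and quality control genes is -0.98, and in the second that of the cytosolic chaperones is 0.98 and that of the mitochondrially encoded mRNAs -0.97.

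The late rises of hsp-6, clpp-1 and lonp-1 took place while respiratory chain mRNAs declined. For 192 h against 24 h, 19 of 24 nuclear-encoded respiratory chain genes fell and 1, clk-1, rose. Of all genes tested, 39.7% passed in this window and 19.4% rose. The ATP synthase gene atp-1 fell from 1458 to 406 CPM (log2 fold change -1.85, FDR 4.00e-15). All 8 tested mitochondrially encoded mRNAs fell, with a median log2 fold change of -0.97, and 4 more on that list were not tested. These 4 held 0 to 14 counts over all 48 libraries, where the 8 tested held 56669 to 1755371, and nothing is read from their low counts about expression. For 288 h against 192 h 21 of 24 and 7 of 8 fell, while lonp-1 and atfs-1 rose. Of 10 tested genes of mitophagy and mitochondrial dynamics, 5 rose and 1 fell for 192 h against 24 h, among them dct-1, a mitophagy receptor gene, from 287 to 645 CPM (1.17, FDR 3.95e-11). For 12 h against 0 h, when hsp-60 fell, 7 of the 24 rose and 5 fell, 0 of the 8 rose and 5 fell, and 6 of the 10 rose and 1 fell. For 24 h against 12 h, when hsp-6 rose, 1 of the 24 and 1 of the 8 fell and 1 of the 10 rose. At 0 h against -2 h 10 of the 24 rose and none of the others passed, and at 288 h against 192 h 2 of the 10 rose and 3 fell. Of all genes tested, 23.8%, 45.4%, 9.55% and 24.7% passed in the windows ending at 0, 12, 24 and 288 h. Those that rose were 11.5%, 22.2%, 4.26% and 7.38%.

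Markers of some tissues moved in the same late windows. The summed level of 4 body wall muscle markers ranged from 12647 to 14193 CPM at 24 h, from 1753 to 3632 at 192 h and from 402 to 653 at 288 h. That of 5 intestine markers ranged from 3252 to 3511 CPM, from 1150 to 1318 and from 351 to 535 at the same time points, while that of 4 neuronal markers ranged from 579 to 661, from 625 to 755 and from 551 to 731. For 4 epidermal markers the ranges were 81.8 to 99.5, 67.7 to 82.6 and 59.7 to 78.3 CPM, and for 4 markers of primordial germ cells 43.4 to 66.1, 28.8 to 56.2 and 34.6 to 51.0. Of these markers, 4 of muscle, 4 of intestine, 2 of epidermis, 2 of germ cells and 0 of neurons fell for 192 h against 24 h. For 288 h against 192 h 4, 3, 1, 0 and 0 fell, and 0 rose in either window. Of all genes tested, 39.7% and 24.7% passed, and 19.4% and 7.38% rose. The intestine marker elt-7 held 11.1 CPM ± 2.85 at 24 h, 14.4 ± 1.85 at 192 h and 17.3 ± 2.41 at 288 h, without passing. No marker was at 0 in all libraries of a time point. On the relative scale hsp-6 and clpp-1 rose for 192 h against 24 h and lonp-1 in both late windows. The gene atfs-1 rose for 288 h against 192 h only, a call lost without replicate 1. The part that tissue composition had in these rises was not tested. Between 0 h and 12 h, when hsp-60 fell, the muscle sum ranged from 8630 to 11455 and from 10829 to 12767 CPM and the intestine sum from 2603 to 3791 and from 3271 to 3736. Single markers of these tissues went opposite ways within those sums. Of the 5 intestine markers 3 rose and 2 fell, among them the actin gene act-5, from 1196 to 147 CPM (log2 fold change -3.02, FDR 3.11e-18), and the intermediate filament gene ifb-2, from 1244 to 2184 CPM (0.81, FDR 1.63e-06). In muscle the myosin light chain gene mlc-1 fell (-0.93, FDR 5.42e-06) and the myosin heavy chain gene unc-54 rose (0.67, FDR 0.00345). Their part in the fall of hsp-60 was not tested.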

How the data were processed

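The authors sequenced mRNA libraries as single-end reads, mapped them to WS210 with bowtie and ran HTSeq to count them by gene. A poly(A) selection step is named in the methods only for the study's separate experiment. Tool versions and the strand mode of counting are not given in the sources used here. The deposited values were raw counts for 44968 genes and 5 summary entries, which took a mean of 24.8% of reads (21.1 to 29.7%) and were left out. Counts were scaled by TMM in edgeR 4.0.16 (R 4.3.3). The filter on low counts (CPM over 1 in at least 4 libraries) follows the threshold in the study's methods, but the number of genes it kept here, 16987, differs from the study's. Change over the 12 time points was tested by the likelihood ratio test, and pairs of time points by the 2-sided quasi-likelihood F test after fitting the 48 libraries together, each with Benjamini-Hochberg adjustment over 16987 genes (FDR, threshold 0.05). The common biological coefficient of variation was 0.188. Intervals and floors cover counting error and the spread between libraries only.

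Symbols, exon lengths and neighbours came from WBcel235 (43592 IDs matched RefSeq and 18 Ensembl alone). No coordinates are given, since the builds differ. All members are named. From each list, up to 2 rises and 2 falls per window with the largest size could be named, and the text names some of these, beside genes named for counts or position after their values were seen. Genes of similar time course were ranked on log2(CPM + 1). The members and lists were chosen with earlier results of these data known. The list of cytosolic chaperones lacks 1 gene that could not be matched.

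Per the methods, 3 replicates were each sampled from a single culture over time and 1 combined several cultures. Which number the latter carries is not stated, and its libraries need not share a culture. The replicate block treats every number as pairing libraries. Deviations of same-numbered libraries from the time point means correlated at 0.0491 to 0.645 over 20 pairs, 18 of them over 0.1. The mean r with libraries of other numbers ran from -0.280 to -0.0145. The 2 sets of values are not independent, since the deviations are from shared means. The fit with a replicate block is given where it changed a call. No pair of libraries was identical. On simulated counts for 12 h against 0 h (16426 genes), 30 of 50 genes were recovered at 1.5-fold and 41 of 50 at 2-fold. At 4-fold 50 of 50 were recovered and at 8-fold 49 of 50, with 7 false calls. In the simulation only these genes changed, at 12 h alone, and no replicate effect was drawn. In the data 45.4% of all genes tested passed in this window, so the error rate of the real test cannot be read from the simulation. Alternatives were DESeq2 1.42.0, other scalings and filters, leaving out each replicate, a fit of the 8 libraries compared, and, chosen after seeing the data, omitting the 2 libraries richest in ribosomal RNA.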

Additional observations from a re-analysis of the deposited data

Results flagged for a closer look

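Within a time point, 5 of 84 sets of 4 libraries held a library set apart from the other 3 (gap over range past Dixon's critical value), close to the 1 in 20 that chance gives. At 0 h, atfs-1 was at 82.2 CPM in replicate 6 against 90.1 to 91.8 in the others. At 288 h, hsp-60 was at 53.0 CPM in replicate 1 against 40.4 to 41.5. At 9 h, clpp-1 was at 21.7 CPM in replicate 8 against 13.3 to 13.4. The lonp-1 level at 4 h was 56.0 CPM in replicate 5 against 45.97 to 47.6, and at 96 h 63.6 CPM in replicate 1 against 54.6 to 55.6.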

How the results depend on the processing

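Over 5 windows and 13 alternatives, 450 member values could be compared: 433 kept their side of the threshold, 5 lost the call, 12 gained it and 0 calls reversed direction. Estimates short of the threshold could change sign, such as that of dve-1 at 0 h against -2 h, which ran from -0.119 to 0.129. Without scaling factors 0 members passed at 24 h against 12 h in place of 1, and with no filter on low counts 0 passed at 288 h against 192 h in place of 2. Leaving out a replicate gave 1 to 2 members at 288 h against 192 h, with 1 without replicate 1. The replicate block changed no member's call other than those of ubl-5 (log2 fold change -0.68) and clpp-1 (0.42) at 12 h against 0 h. Highest means moved without scaling factors from 288 to 0 h for atfs-1, from 192 to 288 h for hsp-6 and from -2 to 0 h for dve-1 and hsp-60. Those of dve-1 and hsp-60 also moved to 0 h with upper-quartile factors, that of dve-1 to 0 h without replicate 1, without replicate 8 and without the 2 libraries rich in ribosomal RNA, and that of clpp-1 from 288 to 192 h without replicate 1. Counts over all genes moved by over 1.5 times in few settings: 8209 against 14427 over all time points at a mean CPM of at least 10, 2578 against 4051 at 0 h against -2 h without the 2 libraries rich in ribosomal RNA, and 1045, 969 and 962 without replicates 5, 6 and 8 and 2472 with the replicate block against 1623 at 24 h against 12 h. The share of calls that were higher moved without scaling factors from 48.4 to 66.9%, 48.8 to 38.2%, 44.5 to 7.12% and 29.8 to 61.3% in the windows ending at 0, 12, 24 and 288 h. In the last it was also 49.5% with upper-quartile factors, 46.1% at a mean CPM of at least 10 and 42.7% in the fit of 8 libraries. The cause of these shifts was not tested.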
